A study of Mus musculus with 10 samples.

Results

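Mast cell proteases and receptors were followed in the visceral fat of tumour-bearing mice through 10 genes chosen by name: the proteases Mcpt4, Cma1, Cpa3, Tpsb2 and Tpsab1, and the receptors Kit, Fcer1a, Ms4a2, Mrgprb1 and Mrgprb2. All 10 were listed among the 29242 genes with TPM, a length-corrected relative abundance of transcripts, and among the 16667 genes with normalized counts. RNA had been sequenced from 5 KPC mice, which carried an orthotopic KPC pancreatic tumour (KPC tumours model human pancreatic ductal adenocarcinoma, and an orthotopic tumour grows in the organ of its origin), and from 5 sham mice, which had sham surgery. All 10 animals were wild type C57BL/6 mice aged 10 weeks, and the numbers 1 to 5 used below are those of the sample descriptions. The labels give neither the clone of the tumour cells nor the sex of the mice. The study is titled for type 2 immunity, the arm of immunity to which mast cells belong, in the adipose wasting of cancer.

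Mast cells are tissue-resident immune cells that lie along vessels, nerves and the serosal lining and store preformed proteases, histamine and heparin in granules. They grow in response to stem cell factor through the receptor Kit. They release their granules when antigen crosslinks IgE on its high-affinity receptor, or when basic peptides and drugs act on Mas-related receptors. The connective tissue type of mast cell in mice is marked by the chymase Mcpt4, the elastase-like protease Cma1, the tryptase Tpsb2 and carboxypeptidase A3, Cpa3. The transcription factor GATA2 is needed for the lineage and for expression of several of these genes.

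The stretches upstream of the genes are shown because the members serve here as mast cell markers. The words bound by GATA factors can also be read in these stretches. Each line gives the 250 bases before the RefSeq transcription start on GRCm38.p6, 5′ to 3′ on the strand of the gene, and capitals mark the word AGATAA or AGATAG, or the word TGATAA or TGATAG, on either strand.
Mcpt4: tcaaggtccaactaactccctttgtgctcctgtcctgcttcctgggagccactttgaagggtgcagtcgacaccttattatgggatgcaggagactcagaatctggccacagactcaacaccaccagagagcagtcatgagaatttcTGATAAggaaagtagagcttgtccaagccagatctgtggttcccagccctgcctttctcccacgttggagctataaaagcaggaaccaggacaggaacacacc
Cma1: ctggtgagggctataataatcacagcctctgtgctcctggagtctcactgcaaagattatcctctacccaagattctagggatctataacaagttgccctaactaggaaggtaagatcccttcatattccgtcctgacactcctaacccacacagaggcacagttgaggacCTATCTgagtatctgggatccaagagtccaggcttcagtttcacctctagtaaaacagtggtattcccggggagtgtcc
Cpa3: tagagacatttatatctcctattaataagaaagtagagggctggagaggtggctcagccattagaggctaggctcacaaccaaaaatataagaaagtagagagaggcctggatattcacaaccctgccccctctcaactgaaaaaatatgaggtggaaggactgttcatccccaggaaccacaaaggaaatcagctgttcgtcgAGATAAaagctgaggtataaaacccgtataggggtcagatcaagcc
Fcer1a: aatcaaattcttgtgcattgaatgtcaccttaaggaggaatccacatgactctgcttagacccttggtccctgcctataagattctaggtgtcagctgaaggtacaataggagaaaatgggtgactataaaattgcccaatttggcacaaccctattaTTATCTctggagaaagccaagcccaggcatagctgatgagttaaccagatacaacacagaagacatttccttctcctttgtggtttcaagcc
Ms4a2: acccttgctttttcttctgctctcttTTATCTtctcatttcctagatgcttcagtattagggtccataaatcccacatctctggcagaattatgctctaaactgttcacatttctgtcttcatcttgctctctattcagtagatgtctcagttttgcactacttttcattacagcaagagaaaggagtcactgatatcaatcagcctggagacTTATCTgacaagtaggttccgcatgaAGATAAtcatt
These stretches lie on the minus strand at chr14:56062311-56062560 for Mcpt4, chr14:55944676-55944925 for Cma1, chr3:20242182-20242431 for Cpa3, chr1:173227230-173227479 for Fcer1a and chr19:11623720-11623969 for Ms4a2. RefSeq gave a start for 8 members, and 7 of them held at least 1 such word, against 26.5% of the 32851 upstream stretches of the same length in that table. The word lay 103 bases before the start in Mcpt4, 79 in Cma1, 46 in Cpa3 and 92 in Fcer1a. Ms4a2 held 3, at 224, 37 and 11 bases before its start, and no word overlapped another in these 5 genes. The GC-rich stretch of Kit (70.8% G and C) held none of these words. The 7 stretches with a word held 37.2% to 51.2% G and C, and the background stretches were not matched for this. The word CATGTG or its complement CACATG, or CACGTG, which the mast cell factor MITF can bind, was found upstream of 1 of the 8 members, Fcer1a, and in 17.6% of all such stretches. A word is a description of sequence and not a measured binding site.

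On GRCm38 with the GENCODE vM21 annotation all 10 members are protein-coding genes. Mcpt4 (ENSMUSG00000061068, 56059629 to 56062313) and Cma1 (ENSMUSG00000022225, 55941451 to 55944675) lie on the minus strand of chromosome 14, 115 kb apart. Tpsb2 (ENSMUSG00000033825, 25366305 to 25369098, plus strand) and Tpsab1 (ENSMUSG00000024173, 25343245 to 25345562, minus strand) lie 20.7 kb apart on chromosome 17. Cpa3 (ENSMUSG00000001865) spans 20215620 to 20242181 on the minus strand of chromosome 3, and Kit (ENSMUSG00000005672) spans 75574916 to 75656722 on the plus strand of chromosome 5. Fcer1a (ENSMUSG00000005339, chromosome 1, 173221284 to 173227214) and Ms4a2 (ENSMUSG00000024680, chromosome 19, 11615523 to 11623719) lie on the minus strand. Mrgprb1 (ENSMUSG00000070547, 48444113 to 48456342) and Mrgprb2 (ENSMUSG00000050425, 48550965 to 48558086) lie on the minus strand of chromosome 7. The microRNA gene Mir7007, inside Cpa3 and on the same strand, is the 1 annotated gene that overlaps a member.

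The libraries held 20941242 to 24449863 normalized counts in all. Adipoq, the adipocyte hormone adiponectin, stood at 4264 ± 673 TPM in KPC mice and 4289.6 ± 559 TPM in sham mice (SD, n = 5 each), which fits the adipose label. KPC mouse 1 had the highest summed level of 8 macrophage genes, 3760 TPM, where the other KPC mice had 820 to 1275 TPM and sham mice 505 to 847 TPM. Summed levels of 8 skeletal muscle genes were 52.3 to 230 TPM in KPC mice and 52.7 to 4121 TPM in sham mice. For 8 red cell genes they were 8576 to 40806 TPM in KPC mice, highest in KPC mouse 1, and 4765 to 12905 TPM in sham mice. The part of these differences in the results below was not tested.

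The difference between KPC and sham mice passed the test for 0 of the 10 members. Of the 10 members, 7 had a mean of at least 10 normalized counts and entered the fit across 14203 genes, and limma with Benjamini-Hochberg adjustment over all of them called 0. The background was 8 genes called, 0.0563% of those tested (0.0493% higher and 0.00704% lower in KPC mice). At an unadjusted limma p under 0.05 the count of members was 0 as well, against 13.5% of all genes tested. In TPM the groups overlapped for all 10 members. Among the 14203 genes tested, judged on normalized counts, 2.75% had every KPC mouse above every sham mouse and 1.28% every KPC mouse below. The members outside the fit are not among those genes. The members did not all carry the same precision: Mcpt4, Cpa3 and Kit had narrow intervals around 0, and Cma1 and Tpsb2 very wide ones. In whole tissue, a change in the number of mast cells and a change in RNA per mast cell cannot be told apart.

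Mcpt4, the chymase mouse mast cell protease 4, was the highest member per length in every library. It stood at 27.7, 27.0, 19.2, 32.7 and 23.9 TPM in KPC mice 1 to 5, against 22.7, 22.2, 30.5, 28.2 and 30.96 TPM in sham mice 1 to 5. The KPC mice spanned the whole sham range, with KPC mouse 3 lowest and KPC mouse 4 highest of all 10. The log2 difference of KPC minus sham, on the log2(normalized count + 1) scale, was -0.02 ± 0.14 (SE), with a limma adjusted p of 0.967. As a fold this was 0.988, with a 95% interval of 0.804 to 1.21.

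Cpa3, the carboxypeptidase that is stored with Cma1 in the granule, likewise had a difference near 0. Its levels were 7.34, 9.75, 7.37, 10.3 and 7.08 TPM in KPC mice 1 to 5, against 6.49, 8.18, 8.73, 9.82 and 11.8 TPM in sham mice 1 to 5. Both ends of the range were sham mice. The log2 difference was -0.06 ± 0.16 (limma adjusted p = 0.886), a fold of 0.958 with a 95% interval of 0.754 to 1.22. The ratio of Cpa3 to Mcpt4 TPM was 0.265 to 0.384 in KPC mice and 0.285 to 0.382 in sham mice. The spread of the 2 genes within groups was ordinary: the SD of log2 values was 0.21 for Mcpt4 and 0.24 for Cpa3, at the 33.3 and 40.0 percentiles of all genes tested.

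Cma1, mouse mast cell protease 5, was listed at 0 in some mice. Its values were 21.2, 21.8, 0, 22.0 and 0 TPM in KPC mice 1 to 5, against 11.9, 16.0, 5.30, 19.5 and 12.1 TPM in sham mice 1 to 5. KPC mice 1, 2 and 4 lay above all 5 sham mice, and the other 2 KPC mice, 3 and 5, lay below them. In those 2 mice Mcpt4 stood at 19.2 and 23.9 TPM. The mean of Cma1 was 13.0 ± 11.9 TPM in KPC mice and 13.0 ± 5.31 TPM in sham mice (SD, n = 5 each). Its median was 21.2 TPM in KPC mice and 12.1 TPM in sham mice. The limma difference of -2.50 ± 1.77 (adjusted p = 0.555, 95% interval -6.39 to 1.40) rests on the zeros, and it was -1.23 when either KPC mouse 3 or KPC mouse 5 was left out. The SD of Cma1 within groups, 3.32 on the log2 scale, lay at the 99.9 percentile of all genes tested.

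Tpsb2, the tryptase mouse mast cell protease 6, was listed at 0 in KPC mice 2, 3 and 5 and in sham mice 1 and 3. Its other values were 5.04 TPM in KPC mouse 1 and 5.34 TPM in KPC mouse 4, against 6.72, 1.47 and 8.74 TPM in sham mice 2, 4 and 5. Zeros and high values occurred in both groups, and the limma difference was -1.09 ± 1.86 (adjusted p = 0.827, 95% interval -5.17 to 2.98). Single mice moved it: it was -2.04 with KPC mouse 1 left out, -2.02 with KPC mouse 4 left out, -0.47 with any of KPC mice 2, 3 and 5 left out, -1.99 with sham mouse 1 or 3 left out, -0.34 with sham mouse 2 left out and -0.26 with sham mouse 5 left out. Tpsab1, the tryptase mouse mast cell protease 7, is known in C57BL/6 mice for a splice-site defect that leaves them without the protein. It was low, at 0.879, 0.249, 0, 0.103 and 0.187 TPM in KPC mice 1 to 5, against 0.0612, 0.0770, 0.110, 0.107 and 0.264 TPM in sham mice 1 to 5. With a mean of 4.81 normalized counts it was outside the fit. The exact two-sided permutation test over all assignments of mice to groups gave a log2 difference of 0.45 with p = 0.627.

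A listed 0 was not particular to these proteases. Of 11100 genes averaging 100 or more normalized counts, 38 were listed at 0 in at least 1 library, and Cma1 was 1 of them. They included genes that every cell uses, such as Prkaa1, a catalytic subunit of AMP-activated kinase, at 0 in 2 libraries and with up to 735 normalized counts in others, and the RNA helicase gene Dhx30, at 0 in 1 library. A 0 for Cma1 or Tpsb2 is therefore given as listed. The fitted differences of both genes, the median over the members and the order of mean levels include these zeros. Shared sequence was counted because Salmon divides reads between like transcripts by an estimate. Of the 31-base words of Cma1 transcripts, 10.6% to 10.7% also occur in the pseudogene Gm48934. Within the gene, 100% of the words of Cma1-201 and 98.5% of those of Cma1-202 occur in the other Cma1 transcript. For Mcpt4, which was above 0 in every library, the share found in other genes was 12.2%, with 10.2% in Cma2. Words shared with the other tryptase made up 0.715% to 0.998% of Tpsb2 transcripts, and 100% of the words of transcript Tpsb2-201 occur in another Tpsb2 transcript. The part of shared sequence in the zeros was not tested.

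**Figure D1:**
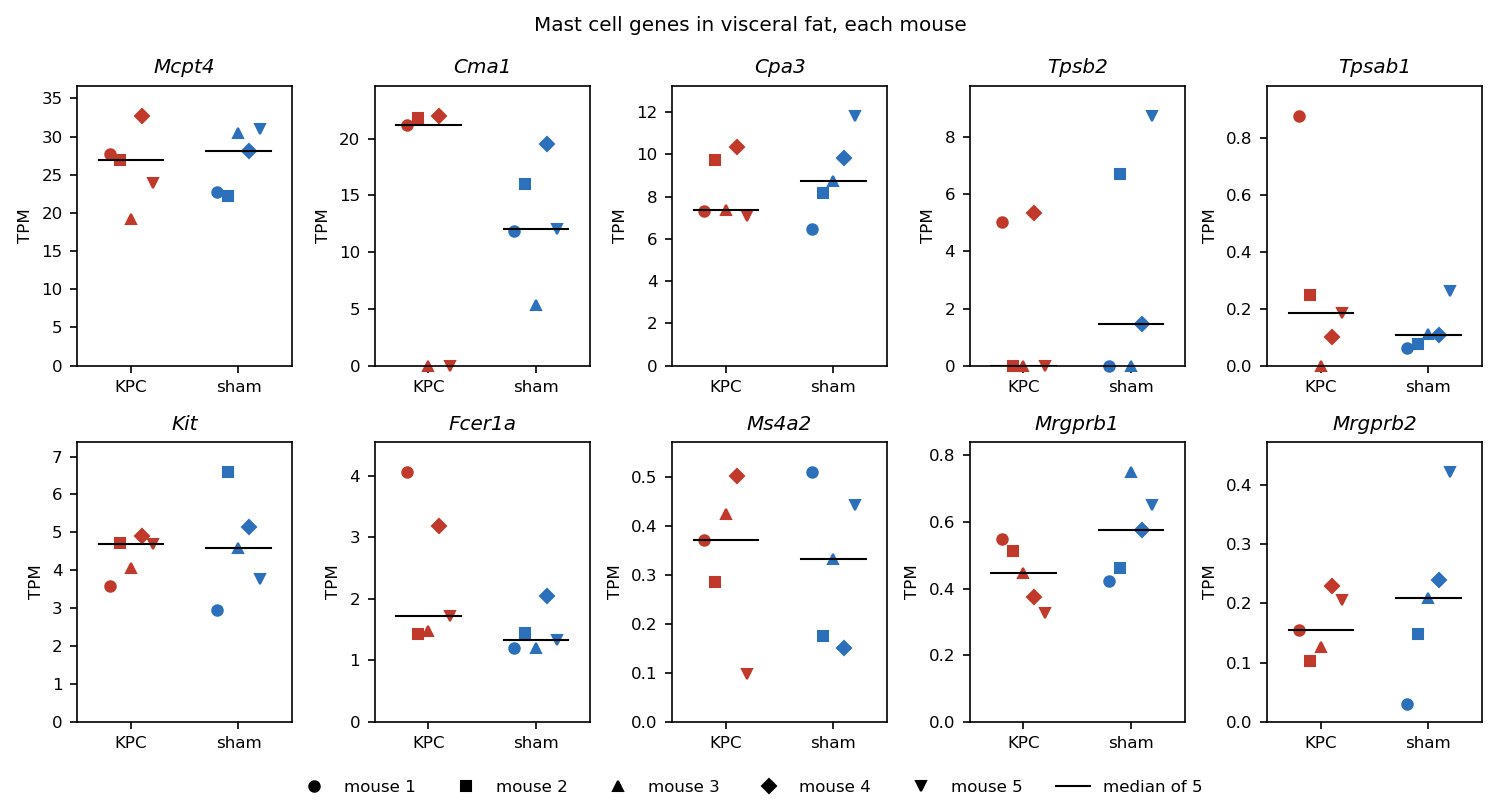
TPM of the 10 mast cell genes in each mouse, with KPC mice in red left of sham mice in blue, symbols for mouse numbers and a line at the median of 5. Mcpt4 runs from 19.2 to 32.7 TPM in KPC mice and from 22.2 to 30.96 TPM in sham mice, while Cma1 and Tpsb2 hold values of 0 beside high ones.

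The summed TPM of the 10 genes was 33.1 to 79.7 in KPC mice and 46.3 to 70.5 in sham mice. With Cma1 and Tpsb2 left out, the sum of the other 8 was 42.5 ± 7.25 TPM in KPC mice and 43.2 ± 6.21 TPM in sham mice (SD, n = 5 each). Mcpt4 made up 58.0% to 62.6% of that sum in KPC mice and 56.5% to 66.1% in sham mice. KPC mice 3 and 5, with Cma1 and Tpsb2 both listed at 0, had the lowest sums of all 10 genes.

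**Figure D2:**
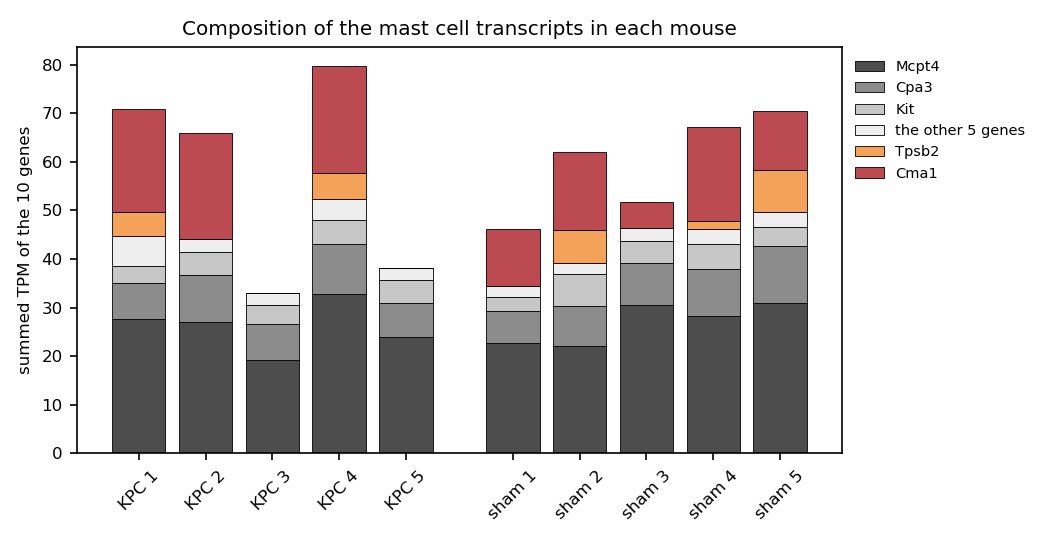
Summed TPM of the 10 mast cell genes in each mouse, stacked by gene, with KPC mice left and sham mice right. The grey part, led by Mcpt4, is 33.1 to 52.3 TPM in KPC mice and 34.4 to 49.7 TPM in sham mice, and the red Cma1 part is missing in KPC mice 3 and 5.

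Kit, the receptor tyrosine kinase for stem cell factor, which other cells such as innate lymphoid cells and some endothelial cells also carry, had a difference near 0. It stood at 3.58, 4.73, 4.05, 4.91 and 4.69 TPM in KPC mice 1 to 5, against 2.95, 6.59, 4.60, 5.16 and 3.77 TPM in sham mice 1 to 5. The KPC values all lay inside the sham range. The log2 difference was 0.01 ± 0.18 (limma adjusted p = 0.994), a fold of 1.00 with a 95% interval of 0.768 to 1.31, and its sign turned with the scaling, at -0.03 on log2(TPM + 1). Kitl, the gene of stem cell factor itself, averaged 24.3 ± 7.57 TPM in KPC mice and 21.7 ± 1.67 TPM in sham mice (SD, n = 5 each). KPC mice 1, 2 and 3, at 17.7 to 19.9 TPM, lay below every sham mouse, and KPC mice 4 and 5, at 32.1 TPM or more, above every one. The log2 difference of Kitl was 0.14 ± 0.16 (limma adjusted p = 0.711). Leaving out KPC mouse 1 gave 0.23, leaving out KPC mouse 4 gave 0.05 and leaving out KPC mouse 5 gave 0.04. The sample titles of KPC mice 4 and 5 begin with the number 4, as does that of sham mouse 5, at 21.3 TPM. With this first number as a block the log2 difference of Kitl was 0.08. What the number marks is not stated in the labels.

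The IgE receptor consists of the IgE-binding alpha chain Fcer1a, the signal-amplifying beta chain Ms4a2 and a gamma chain shared with other Fc receptors. Fcer1a and Ms4a2 also stand on the list of basophil genes used below, so they do not mark mast cells alone. Fcer1a was the tested member with the largest positive difference. It had 4.05, 1.43, 1.47, 3.18 and 1.72 TPM in KPC mice 1 to 5, against 1.20, 1.44, 1.20, 2.05 and 1.34 TPM in sham mice 1 to 5. KPC mice 1 and 4 stood above all sham mice and the other 3 lay within the sham range. The log2 difference was 0.62 ± 0.35 (limma adjusted p = 0.459, 95% interval -0.15 to 1.39), and without KPC mouse 1 it was 0.38. Ms4a2 had 0.372, 0.287, 0.425, 0.502 and 0.0974 TPM in KPC mice 1 to 5, against 0.511, 0.176, 0.333, 0.151 and 0.443 TPM in sham mice 1 to 5. Both groups spread over much of the same range, and at a mean of 9.94 normalized counts the gene was outside the fit. Its log2 difference was 0.06, with p = 0.913 in the exact two-sided permutation test.

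Mrgprb2 is the mouse receptor through which basic secretagogues, among them several drugs, trigger mast cells, and Mrgprb1 is a close relative. Mrgprb1 had 0.550, 0.514, 0.448, 0.376 and 0.328 TPM in KPC mice 1 to 5, against 0.423, 0.463, 0.750, 0.576 and 0.651 TPM in sham mice 1 to 5. The 3 highest values were sham mice and the 2 lowest KPC mice. The log2 difference was -0.32 ± 0.26 (limma adjusted p = 0.602, 95% interval -0.88 to 0.24), and it was -0.21 without KPC mouse 5. Mrgprb2 had 0.155, 0.103, 0.127, 0.229 and 0.206 TPM in KPC mice 1 to 5, against 0.0303, 0.148, 0.208, 0.240 and 0.421 TPM in sham mice 1 to 5. The lowest and the highest value were both sham mice, and the exact two-sided permutation test gave a log2 difference of -0.04 with p = 0.929 at a mean of 6.01 normalized counts.

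**Figure D3:**
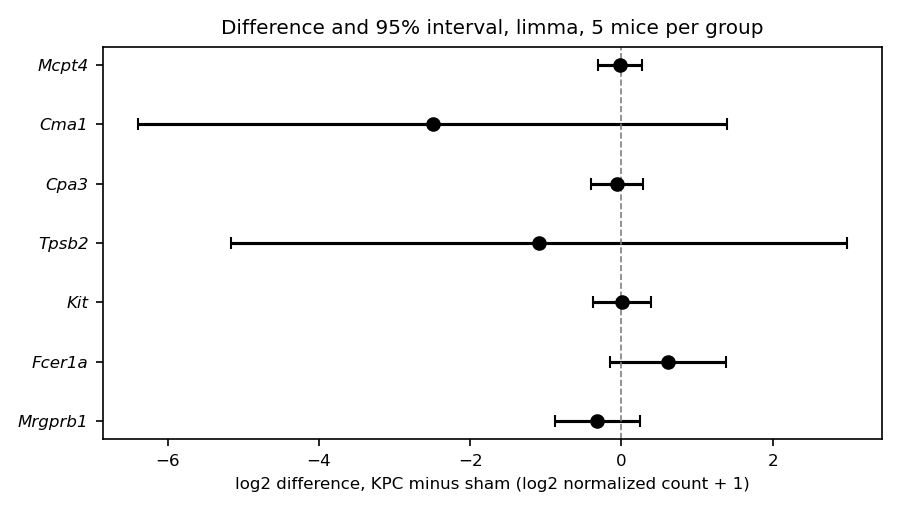
Log2 difference of KPC minus sham with its 95% interval from limma for the 7 mast cell genes that entered the fit (5 mice per group). Intervals are narrow for Mcpt4, Cpa3 and Kit, from -0.41 to 0.39 at most, and reach from -6.39 to 2.98 for Cma1 and Tpsb2.

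Per length, the order of the members was Mcpt4, Cma1, Cpa3, Kit, Tpsb2, Fcer1a, Mrgprb1, Ms4a2, Tpsab1 and Mrgprb2 by mean TPM over all 10 libraries. Mcpt4 exceeded Cma1, Cpa3 exceeded Kit and Fcer1a exceeded Mrgprb1 in 10 of 10 mice. Other neighbours changed places between mice: Cma1 exceeded Cpa3 in 7 mice, Kit exceeded Tpsb2 in 6, Tpsb2 exceeded Fcer1a in 4, Mrgprb1 exceeded Ms4a2 in 8, Ms4a2 exceeded Tpsab1 in 8 and Tpsab1 exceeded Mrgprb2 in 3. The receptors of the IgE and Mas-related classes were thus listed at levels far below the chymase, at 1.91 TPM for Fcer1a and 0.187 TPM for Mrgprb2, against 26.5 TPM for Mcpt4, as means over all mice.

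Of the other proteases, the mucosal mast cell protease Mcpt1 was listed at 0 in every library, as were Mcpt9 and Cma2, and Mcpt2, the other mucosal one, reached 0.0787 TPM at most. Of 10 genes on the list of other proteases, 3 were tested and limma called 0, with 1 at an unadjusted p under 0.05. They were Ctsc, the peptidase that activates granule proteases and is made by many myeloid cells, at 124 ± 43.9 TPM in KPC mice and 75.6 ± 10.7 TPM in sham mice, the granzyme gene Gzmb and the lysosomal protease gene Ctsd. Their log2 differences were 0.69 ± 0.22, 0.62 ± 0.34 and -0.21 ± 0.19, with limma adjusted p-values of 0.255, 0.447 and 0.644, and Ctsd differed by -0.06 without sham mouse 1. Ctsd stood at 1015 ± 79.2 TPM in KPC mice and 1220.2 ± 256 TPM in sham mice. Of the basophil proteases, Mcpt8 was listed at 0 in KPC mice 2, 4 and 5 and stood at 0.632 TPM in KPC mouse 1 and 0.240 TPM in KPC mouse 3, and was listed at 0 in all sham mice but sham mouse 5, at 0.169 TPM. Prss34, the other one on the list, was above 0 in all 10 mice, at 0.959 ± 0.622 TPM in KPC mice and 1.04 ± 0.342 TPM in sham mice, with a log2 difference of -0.42 ± 0.65 (limma adjusted p = 0.811). Both were named after their values were seen. The 5 tested basophil genes, with the member Fcer1a and Gata2 among them, had a median log2 difference of 0.15. Of these 5 genes limma called 0, with 0 at an unadjusted p under 0.05.

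Genes of mast cell mediators and of signalling below the IgE receptor had mostly positive differences that did not pass the test. Over all genes tested, 6657 of 14203 had a positive difference, and 13.5% had an unadjusted limma p under 0.05. Of the 10 tested mediator genes, 9 had a positive difference and limma called 0 (5 at an unadjusted p under 0.05), with a median log2 difference of 0.61 beside -0.02 over all genes tested, and of 0.36 without KPC mouse 1. Of the 14 genes of IgE receptor signalling, 11 had a positive difference and limma called 0 (7 at an unadjusted p under 0.05), with a median of 0.63, and of 0.40 without KPC mouse 1. Many of these genes are also expressed by macrophages, and all 8 genes of a macrophage list had positive differences in the same mice, with a median of 0.77, and of 0.64 without KPC mouse 1. Adgre1, the F4/80 antigen of macrophages, stood at 32.0 ± 10.0 TPM in KPC mice and 17.8 ± 4.64 TPM in sham mice (limma adjusted p = 0.1504). All 8 genes of a red cell list likewise had positive differences, with a median of 0.94, and of 0.55 without KPC mouse 1. The part of macrophage or red cell RNA in the mediator and signalling genes was not tested.

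Hdc, histidine decarboxylase, which makes histamine in mast cells, basophils and other myeloid cells, had the largest positive difference of the mediator list. Its levels were 7.73, 1.73, 1.71, 3.73 and 3.17 TPM in KPC mice 1 to 5, against 1.27, 0.934, 1.23, 0.872 and 0.787 TPM in sham mice 1 to 5. The lowest KPC value exceeded the highest sham value, as it did for 2.75% of all genes tested. The log2 difference was 1.62 ± 0.39 with a limma adjusted p of 0.133, and without KPC mouse 1 it was 1.28 with an adjusted p of 0.0858. Srgn, the core protein of granule proteoglycans in many leukocytes, and Ptgs1, cyclooxygenase 1, differed by 0.68 ± 0.24 and 0.25 ± 0.09, with limma adjusted p-values of 0.286 and 0.299, and Srgn differed by 0.41 without KPC mouse 1. Ndst2, an enzyme of heparin synthesis named here after its values were seen, was listed at 0 in KPC mice 1, 2 and 3 and in sham mice 1 and 3.

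The gamma chain Fcer1g, likewise named after its values were seen, stood at 342, 96.2, 87.8, 104 and 74.9 TPM in KPC mice 1 to 5, against 57.0, 61.2, 59.9, 53.3 and 69.7 TPM in sham mice 1 to 5. The groups did not overlap, KPC mouse 1 lay far above the rest, and the log2 difference was 1.00 ± 0.36 (limma adjusted p = 0.286), or 0.60 without KPC mouse 1. The kinase genes Syk and Lyn, which act at this chain, and Plcg2, a phospholipase below them, differed by 0.91 ± 0.19, 0.54 ± 0.19 and 0.69 ± 0.21, with limma adjusted p-values of 0.103, 0.278 and 0.243. The log2 differences of these 3 genes without KPC mouse 1 were 0.73, 0.34 and 0.49. The groups did not overlap for Syk and Lyn either, and they overlapped for Plcg2. Of all genes tested, judged on normalized counts, 2.75% had every KPC mouse above every sham mouse.

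Of 9 tested genes on the list of other receptors, 8 had a positive difference, and 4 had an unadjusted limma p under 0.05. The median of the list was 0.55, and 0.40 without KPC mouse 1. The 1 called gene, against 0.0563% called of all genes tested, was Csf2rb2, a chain of the interleukin 3 receptor in mice. Csf2rb2 stood at 13.0 ± 0.849 TPM in KPC mice and 5.54 ± 1.08 TPM in sham mice. Its log2 difference was 1.28 ± 0.12 (limma adjusted p = 0.00301), and its near copy Csf2rb leaves the division of reads between them uncertain. Csf2rb and Cysltr1, a receptor for cysteinyl leukotrienes, differed by 0.89 ± 0.25 and 0.93 ± 0.22, with limma adjusted p-values of 0.198 and 0.127. The part of macrophage or red cell RNA in the genes of this list, Csf2rb2 among them, was not tested. The 6 tested transcription factor genes of the lineage had a median difference of 0.06, with 3 positive and 3 negative, and limma called 0 (2 at an unadjusted p under 0.05). Gata2, which basophils and endothelial cells also express, stood at 5.56 ± 1.80 TPM in KPC mice and 6.82 ± 2.27 TPM in sham mice, with a log2 difference of -0.27 ± 0.23 (limma adjusted p = 0.620), which was -0.12 without KPC mouse 3 and -0.11 without sham mouse 5. Tal1, Lmo2 and Stat5a, the 3 with the smallest p, differed by 0.39, 0.40 and -0.21. Lmo2 differed by 0.24 without KPC mouse 1, and Stat5a by -0.11 without sham mouse 2.

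Among growth factors and attractants of mast cells, 7 of 10 genes were tested, 5 had a positive and 2 a negative difference, and limma called 0 (3 at an unadjusted p under 0.05), with a median of 0.14. The chemokine gene Cxcl12 and the alarmin gene Il33 differed by 0.60 ± 0.18 and 1.05 ± 0.39, with limma adjusted p-values of 0.235 and 0.300, and Il33 differed by 0.69 without KPC mouse 1. The cytokine genes Il3 and Il9 were listed at 0 in every library.

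**Figure D4:**
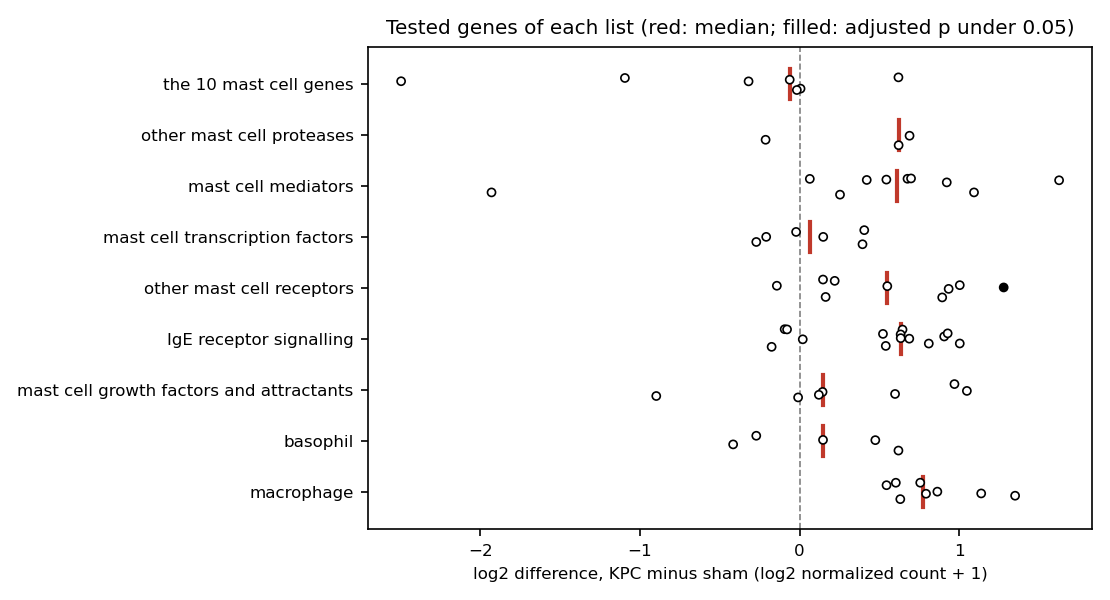
Log2 difference of KPC minus sham for each tested gene of 9 lists, with the list median in red and the called gene, Csf2rb2, filled. The 10 mast cell genes, of which 7 were tested, have a median of -0.06, and the 8 macrophage genes lie at positive values with a median of 0.77.

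The 7 tested members had a median log2 difference of -0.06 beside -0.02 over all genes tested, with 2 positive and 5 negative. The genes most like the proteases were sought as those with the highest Pearson r over the 10 mice with the mean log2 value of Cma1, Tpsb2, Cpa3 and Mcpt4, after each group's mean was subtracted. The first 3 of 12 were Ntf3, the gene of neurotrophin 3 (r = 0.924), Skil, an inhibitor of TGF-beta signalling (r = 0.902), and Ppp1r3f, a phosphatase regulator (r = 0.895). These r were picked as the highest among all tested genes outside the members, and no p-value is attached to them. Cma1 and Tpsb2, with their zeros, had the largest SDs of the 4 genes, the points share library scaling, and 0 of the 12 genes stood on the mast cell lists. With Spearman's rho 5 of the 12 were shared, and with the mean of Cpa3 and Mcpt4 alone, chosen after the values were seen, 0 were shared.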

How the data were processed

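Visceral adipose RNA from 5 KPC and 5 sham mice was analysed, with groups and mouse numbers taken from the sample descriptions. The authors deposited normalized gene counts, whose values are fractional and were therefore treated as a signal and not as reads, and a TPM table. Salmon, DESeq, DESeq2 and the build mm10 stand in the submitters' processing notes, with no version. The strand setting and the annotation are not given in the labels. Within a gene the ratio of the deposited normalized count to TPM was constant up to 1 factor per library (median SD 0.00044, log2, over 10131 genes), so both hold one quantification.

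Genes averaging 10 or more normalized counts (14203) were fitted with limma (3.58.1, R 4.3.3, trended prior variance) after adding 1 and taking log2, and Benjamini-Hochberg adjusted p under 0.05 was called. The 3 lower members were tested by exact permutation. The labels number the samples of each group and give no batch, and p-values measure the spread between these samples. Named genes were the members, up to 3 genes per other list with the smallest p, and the 12 genes most like the proteases. The values of 1 gene that this rule names are not reported here. The members and lists were chosen with earlier results of these data known. The fit was tested on simulated data with independent normal noise for each gene. Those data held no outlying mouse, so that test does not bear on KPC mouse 1 or on the listed zeros. Shared words of 31 bases were counted in GENCODE vM21 transcripts, and upstream sequences are from RefSeq (GRCm38.p6). Alternatives were other pseudocounts, filters, scalings, variance models and blocks, and leaving out each mouse.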

Additional observations from a re-analysis of the deposited data

Results flagged for a closer look

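Tpsab1 in sham mice was marked for a closer look because 1 of the 5 mice, sham mouse 5 with 5.83 normalized counts, stood apart from the others at 1.58 to 2.39. The gap to its nearest neighbour was 0.718 of the range on the log2(normalized count + 1) scale, where Dixon's limit for 5 samples is 0.71. Chance flags about 1 in 20 groups, and 20 groups of members were looked at.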

How the results depend on the processing

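No member was called under any alternative run, though a filter at a mean of 50 left Tpsb2, Mrgprb1 and Fcer1a untested, and limma adjusted p-values of the 7 tested members ranged from 0.394 to 0.999 over them. Leaving out each mouse in turn, the difference ran from -3.36 to -1.23 for Cma1, -2.04 to -0.26 for Tpsb2, -0.133 to 0.0288 for Cpa3, -0.0781 to 0.0747 for Mcpt4, -0.10 to 0.15 for Kit, -0.42 to -0.21 for Mrgprb1 and 0.38 to 0.75 for Fcer1a. Kit turned to -0.0286 on log2(TPM + 1) and -0.0274 on log2(TPM + 0.1). The count of all genes called, 8 (7 higher, 1 lower), was 2 with TPM and a pseudocount of 1 (2 higher, 0 lower), 5 with TPM and a pseudocount of 0.1, 3 without a variance trend and 4 with the first number of the sample titles as a block. With the replicate number as a block 4 were called. The numbers share no stated origin, deviations of same-numbered mice correlated at 0.01 to 0.19, and 2 of 5 KPC mice correlated best with their own number. Leaving out 1 mouse gave 2 to 70 calls, with 70 without KPC mouse 1. The causes were not tested. The 12 genes most like the proteases shared 5 with Spearman's rho, 5 with group means kept and 0 with Cpa3 and Mcpt4 alone. Tpsab1, Mrgprb2 and Ms4a2, at means of 4.81 to 9.94 normalized counts, are limited by depth.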
